A study of Mus musculus with 18 samples.

Results

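The 10 genes described here encode the class I arm of antigen presentation: the heavy chains H2-K1, H2-D1, H2-T23 and H2-Q6, the light chain B2m, the peptide transporter subunits Tap1 and Tap2, the loading chaperone Tapbp, and the immunoproteasome subunits Psmb8 and Psmb9. They are a list of gene names, and 9 of the 10 had an identifier in the count table, among 55401 identifiers in all. Psmb9 was not analysed here. RNA sequencing counts were examined in 18 libraries of mouse embryonic fibroblasts, cells grown from the minced bodies of mid-gestation embryos of C57BL/6 mice after removal of head and viscera. In the S6K1 series, 3 wild-type cultures carried a retroviral empty vector (S6K1 WT EV), 3 wild-type cultures carried a retrovirus encoding constitutively active HRAS (S6K1 WT RAS), and 3 cultures lacking S6K1 carried the RAS vector (S6K1 KO RAS). The S6K1/S6K2 series had the same layout, with 3 WT EV, 3 WT RAS and 3 RAS cultures lacking both kinases (S6K1/S6K2 DKO RAS). S6K1 and S6K2 are kinases downstream of mTORC1, and active RAS drives fibroblasts into senescence with an inflammatory secretome. Knockout cells with the empty vector were not analysed here, so an effect of kinase loss without RAS could not be given. By the study's methods KO and WT embryos were littermates, whereas the WT embryos of the S6K1/S6K2 series came from other mothers than the DKO embryos.

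Class I molecules display peptides from inside a cell to CD8+ T cells. Proteasomes cut proteins into peptides, and interferon-induced immunoproteasomes exchange the standard catalytic subunits for Psmb8 (in place of Psmb5), Psmb9 (Psmb6) and Psmb10 (Psmb7). The Tap1 and Tap2 transporter carries the peptides into the endoplasmic reticulum, Tapbp (tapasin) bridges it to the empty heavy chain with B2m, and Erap1 trims the peptides to length. H2-K1 and H2-D1 are the classical heavy chains of this strain, whereas H2-T23 (Qa-1) and H2-Q6 are non-classical ones, Qa-1 being a ligand of NKG2A on natural killer cells. Transcription is driven by NF-κB, by interferon regulatory factors, and by Nlrc5, the class I transactivator, which acts through the X and Y boxes of class I promoters. Fibroblasts carry class I at a low level that interferons raise.

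B2m lies on chromosome 2 (chr2:122147687-122153082, GRCm38.p6) and the other genes lie in the major histocompatibility complex on chromosome 17. From the start of that region come Tapbp (chr17:33919478-33929290) and H2-K1 (chr17:33996012-34000619), then the adjoining Psmb9, Tap1 (chr17:34187556-34197225), Psmb8 (chr17:34198195-34201454) and Tap2 (chr17:34204479-34216321), then H2-D1 (chr17:35263094-35267497), H2-Q6 (chr17:35424850-35430055) and H2-T23 (chr17:36029977-36032701). RefSeq promoter windows (GRCm38.p6) were found for 9 of the 10 genes, Tap2 being the exception, and the 250 bases upstream of the transcript start were searched on both strands. GAAANNGAA, a motif bound by interferon regulatory factors (IRF), occurred in 2 of the 9 windows (H2-T23 and B2m) and in 7.13% of all 32851 windows. GAANNGAAA, a variant searched after the first had been read, occurred in 3 of 9 (H2-K1, H2-D1 and H2-Q6) and in 6.31% of all. A 10-base κB consensus occurred in 4 of 9 (H2-K1, H2-D1, H2-Q6 and B2m) and in 7.25%, and in the 3 heavy chains a pair of κB matches overlapped. TGACG, the core of the X2 box, occurred in 5 of 9 (H2-K1, H2-D1, B2m, and the Tap1 and Psmb9 windows, which overlap) and in 17.8%. CCAAT occurred in 8 of 9, all but Psmb8, and in 33.8%, and TTCNNNGAA, a STAT site, occurred in Psmb8 alone of the 9 and in 7.02%. Upstream sequences of 4 genes are shown because H2-K1 and Tapbp were among the members called with RAS (H2-Q6, also called, is read at few counts), B2m pairs with every heavy chain, and the Tap1 window overlaps that of Psmb9. Capitals mark the IRF, κB and TGACG matches, of which Tap1 has TGACG alone and Tapbp has none. The matches describe letters in the window and not binding. The H2-K1 window ends at the start of one RefSeq transcript and lies inside the outer bounds of the gene given above, whereas the other windows adjoin the outer bounds of their genes.
H2-K1 (minus strand, chr17:34000348-34000597): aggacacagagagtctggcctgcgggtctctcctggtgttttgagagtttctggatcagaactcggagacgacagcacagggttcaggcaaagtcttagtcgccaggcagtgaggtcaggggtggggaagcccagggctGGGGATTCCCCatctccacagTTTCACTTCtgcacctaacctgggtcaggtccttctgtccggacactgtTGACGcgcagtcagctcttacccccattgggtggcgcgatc
B2m (plus strand, chr2:122147437-122147686): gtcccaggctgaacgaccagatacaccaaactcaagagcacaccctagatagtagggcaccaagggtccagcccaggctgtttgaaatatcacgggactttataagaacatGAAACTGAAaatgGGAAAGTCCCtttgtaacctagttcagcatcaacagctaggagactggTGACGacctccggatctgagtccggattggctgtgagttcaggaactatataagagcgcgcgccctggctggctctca
Tap1 (plus strand, chr17:34187306-34187555): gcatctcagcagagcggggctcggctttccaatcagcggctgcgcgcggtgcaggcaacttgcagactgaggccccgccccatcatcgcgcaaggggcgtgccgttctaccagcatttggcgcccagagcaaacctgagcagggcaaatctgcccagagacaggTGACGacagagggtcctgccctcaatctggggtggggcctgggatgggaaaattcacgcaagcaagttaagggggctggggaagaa
Tapbp (plus strand, chr17:33919228-33919477): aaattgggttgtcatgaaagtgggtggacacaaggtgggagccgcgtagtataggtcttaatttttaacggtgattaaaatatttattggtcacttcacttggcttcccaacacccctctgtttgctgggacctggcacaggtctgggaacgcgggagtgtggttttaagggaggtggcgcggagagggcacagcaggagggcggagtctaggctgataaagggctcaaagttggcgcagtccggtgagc
In the H2-K1 window the κB match comes first, then the IRF match and then TGACG, whereas B2m holds the IRF match before the κB match.

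Total counts ranged from 8319445 to 14402442 per library. Rps6kb1 (S6K1) was at 23.6 to 37.0 counts per 1000000 (CPM) in KO RAS and 61.6 to 74.6 in S6K1 WT RAS, and Rps6kb2 (S6K2) was at 2.68 to 3.04 in DKO RAS and 24.1 to 28.9 in the matching WT RAS, with no overlap in either case. Rps6kb1 was at 34.5 to 39.7 CPM in DKO RAS and 75.5 to 83.7 in the matching WT RAS. All 10 fibroblast markers exceeded 3 counts in every library and no lymphoid marker of 7 did so in any. Of 15 macrophage markers 14 or 15 exceeded 3 counts in every library, and their level moved with the class I genes in several comparisons and is given beside each of them. Of endothelial markers 2 to 6 of 7 exceeded 3 counts, of epithelial 0 to 2 of 5 and of muscle 1 to 2 of 6. The fibroblast markers summed to 33951 to 38329 CPM with EV, 16142 to 17905 with RAS in wild-type cells and 15624 to 16645 in the KO cells, and to 31197 to 55742, 13716 to 19009 and 13954 to 17026 in the matching groups of the S6K1/S6K2 series, and the collagens Col1a1 (-1.90 and -2.06) and Col3a1 (-1.87 and -2.23) fell with RAS in both series (log2 fold changes). The labels number the lines of each genotype, and by the methods the cultures came from at least 3 mothers, but which embryo gave which library was not stated, so the p-values measure the spread between these libraries. Of the 10 fibroblast markers 1 rose and 4 fell with RAS in the S6K1 series, and 0 rose and 5 fell in the other, with Col1a2 (-1.43 and -1.76) and Pdgfrb (-1.74 and -1.62) also lower in both, Lum higher in the first (1.07) and Postn lower in the second (-2.75). Endothelial Cdh5 (5.0 and 6.08) and epithelial Epcam (3.72 and 4.80) rose in both, endothelial Tek fell in the second (-2.01), the muscle gene Tnnt2 fell in the first (-3.11), and endothelial Kdr was lower in KO RAS against EV (-0.84). Summed epithelial markers were at means of 0.569 and 0.408 CPM with EV and 1.74 and 1.98 with RAS in wild-type cells. Summed endothelial markers were at 9.31 and 9.32 CPM with EV and 11.1 and 10.5 with RAS. The large fold changes of Cdh5 and Epcam therefore start from few counts with EV. Over all genes 13.2% and 26.3% were called with RAS in the 2 series.

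Per kilobase of exon, which allows genes to be compared, B2m stood far above the heavy chains. In S6K1 WT EV it was at 1368 ± 267 CPM per kb (mean ± SD, n = 3), H2-D1 at 67.1 ± 22.5, Tapbp at 43.7 ± 4.07 and H2-K1 at 37.1 ± 13.4. The ranges of H2-D1, Tapbp and H2-K1 overlapped, so their order was not resolved. Lower came Tap2 at 10.7 ± 0.907, Tap1 at 8.86 ± 0.718, H2-T23 at 6.60 ± 0.975 and Psmb8 at 5.06 ± 2.39 CPM per kb, of which H2-T23 and Psmb8 overlapped. H2-Q6 was barely detected, at 0.0940 ± 0.0309. In the S6K1/S6K2 WT EV cultures B2m again led at 1821 ± 907 and H2-Q6 was last at 0.135 ± 0.0614, with Tapbp at 63.3 ± 32.7, H2-D1 at 55.9 ± 29.4 and H2-K1 at 32.9 ± 25.7 CPM per kb.

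**Figure D1:**
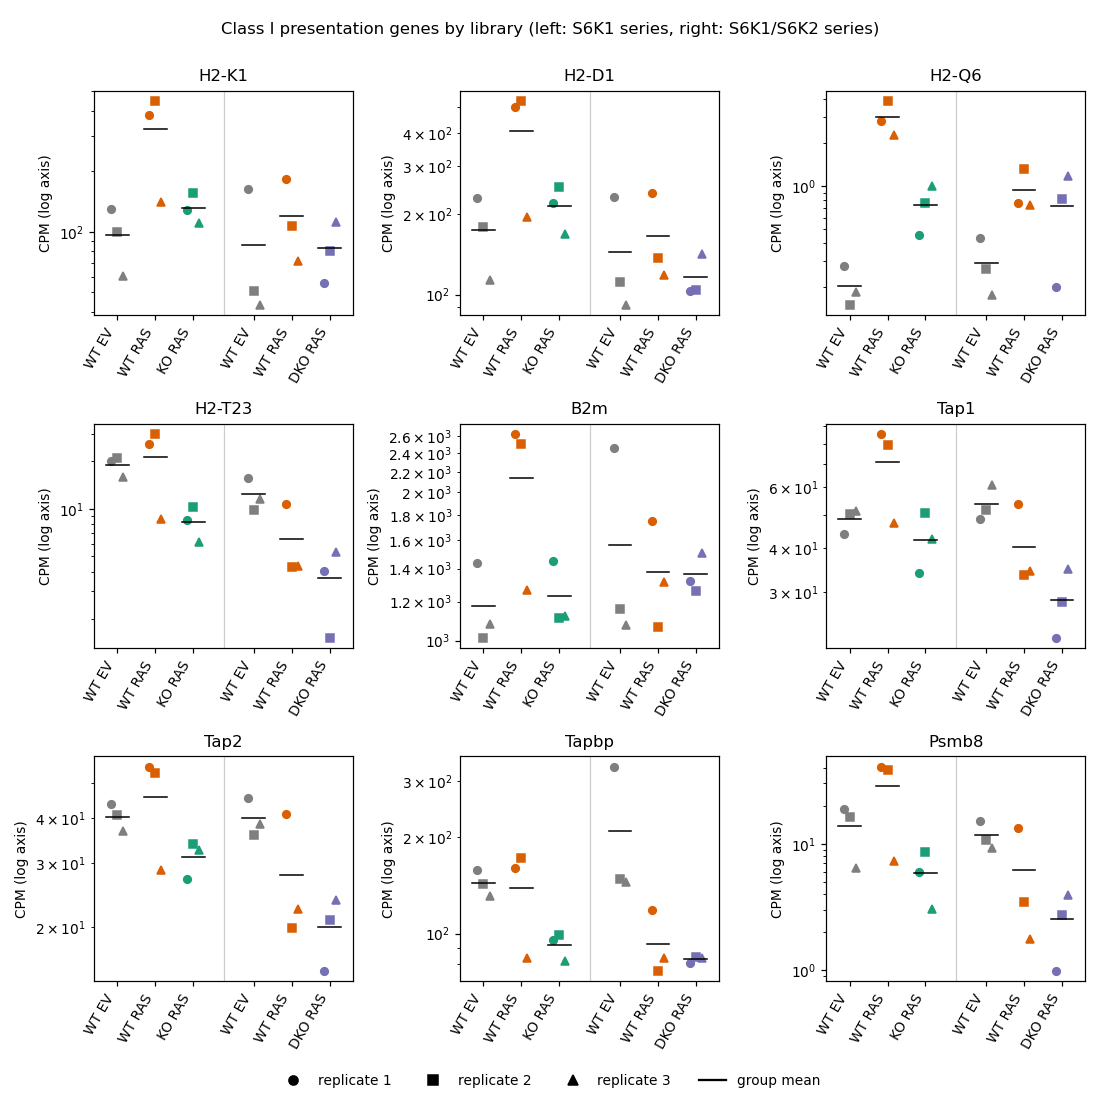
Level of the 9 measured class I presentation genes in each of 18 libraries, in CPM on a log axis, with group means as bars. In the S6K1 series (left of each panel) WT RAS replicates 1 and 2 are the 2 highest of the 9 libraries for every gene plotted, and WT RAS replicate 3 lies lower.

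The first question was how RAS altered the class I genes of wild-type cells. In the S6K1 series the classical heavy chain H2-K1 and the non-classical H2-Q6 rose, and 8 of the 9 tested genes had higher values. The median log2 fold change of the 9 was 0.86, against 0.0018 over all genes tested. H2-K1 stood at 129.7, 100.5 and 60.1 CPM in EV replicates 1 to 3 and at 383, 448 and 140.5 in RAS. Every RAS culture lay above every EV culture, and RAS replicate 3 was the lowest of the RAS group. The log2 fold change was 1.74 ± 0.41 (SE; adjusted p = 0.0236, edgeR quasi-likelihood test). H2-Q6 was read 4, 2 and 2 times in EV and 33, 50 and 28 times in RAS, again without overlap. Its log2 fold change of 3.80 ± 0.44 (adjusted p = 0.000832) rests on these few EV counts and on the prior count of the fit. H2-Q6 passed the filter on low counts through the WT RAS libraries, where it was high, so its call is no independent support. By adjusted p 2 of 9 members were called, where 13.2% of all genes were called. H2-K1 and H2-Q6 were also the 2 of 9 without overlap, where 30.9% of all genes did not overlap. In the same comparison 11 of 15 macrophage markers had higher values (median log2 fold change 0.15; 0 called, 1 at an unadjusted p under 0.05). Of all genes 3710 of 14036 had an unadjusted p under 0.05. In bulk RNA, fewer cells of a type and less RNA per cell cannot be told apart.

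H2-D1 and B2m had higher values with RAS as well but missed the threshold. H2-D1 was at 229, 179 and 113 CPM in EV and 501, 527 and 194 in RAS (log2 fold change 1.23 ± 0.38, adjusted p = 0.0651). B2m was at 1439, 1012 and 1079.6 CPM in EV and 2630.2, 2501 and 1269 in RAS (0.86 ± 0.27, adjusted p = 0.0716). For both genes RAS replicate 3 lay inside the EV range. Same-numbered EV and RAS libraries deviated together, and a fit blocked on the replicate number called 5 of 9 members higher, where 36.2% of all genes were called. These were H2-K1 (1.67 ± 0.22, adjusted p = 0.000335), H2-Q6 (3.78, 0.000126), H2-D1 (1.17, 0.000705), B2m (0.82, 0.00589) and Psmb8 (0.95, 0.00695). That fit also called 6 of the 15 macrophage markers, Itgam (1.15), Cd53 (1.11), Cd14 (0.80), Mrc1 (0.69) and Lyz2 (0.47) higher and Ptprc (-0.38) lower, and their part in the class I values was not tested. Paired by replicate, H2-K1 differed by 1.56, 2.15 and 1.22 and B2m by 0.87, 1.31 and 0.23 on the scale log2(CPM + 0.5). All 3 pairs were higher for these genes, and replicate 3 gave the smallest difference.

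The genes of peptide supply behaved less evenly. Psmb8, the immunoproteasome subunit that replaces Psmb5, was at 18.8, 16.3 and 6.41 CPM in EV and 40.7, 38.6 and 7.31 in RAS (log2 fold change 1.05 ± 0.62, adjusted p = 0.324). Replicates 1 and 2 were high and replicate 3 sat at the level of its EV culture. Tap1 (0.54 ± 0.22, adjusted p = 0.156) was higher in replicates 1 and 2 and not in replicate 3. Tap2 (0.18, 0.669), H2-T23 (0.17, 0.826) and Tapbp (-0.05, 0.913) had log2 fold changes within their standard errors of 0. Within replicate 3 alone, H2-T23 and Tapbp were lower with RAS, at log2 differences of -0.85 and -0.64. Single libraries decided the calls. Without S6K1 WT RAS replicate 3, 5 of 9 members were called (H2-K1, H2-D1, H2-Q6, B2m and Tap1), where 12.8% of all genes were called, whereas without S6K1 WT RAS replicate 1 or 2 (8.27% and 7.33% of all genes called), or S6K1 WT EV replicate 2 or 3 (7.98% and 9.32%), H2-Q6 was the 1 called. Without replicate 2 in every group, an alternative chosen after the values were seen, none was (1.80% of all genes). With those single libraries left out H2-K1 was at an adjusted p between 0.0725 and 0.0911.

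**Figure D2:**
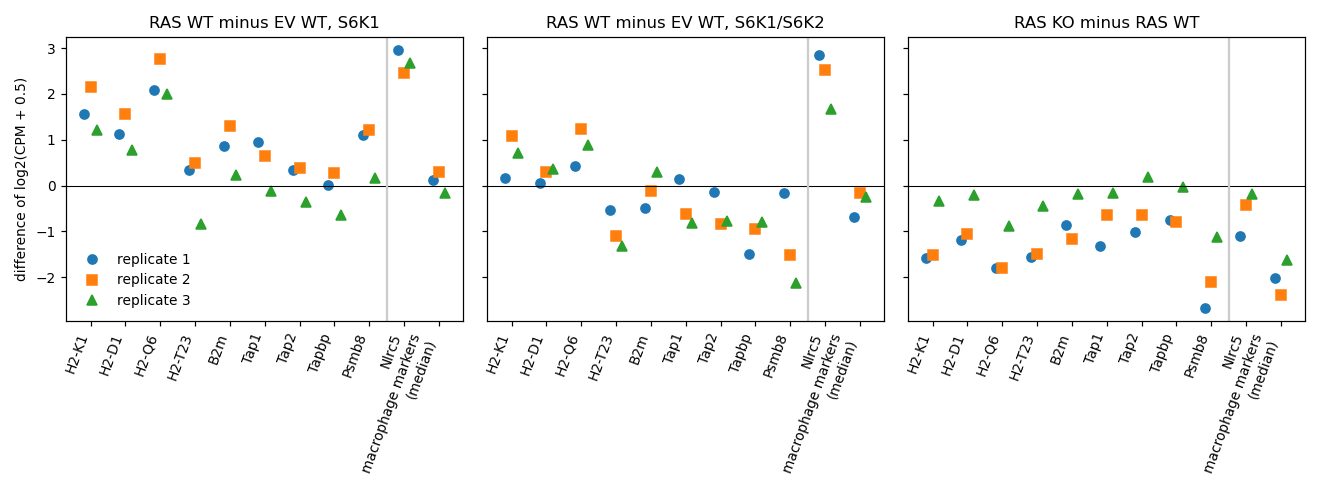
Differences between same-numbered libraries, in log2(CPM + 0.5), for the 9 class I genes, Nlrc5 and the median of 15 macrophage markers (symbols: replicates 1 to 3). Replicate 3 gives the smallest H2-K1 difference in the left panel (1.22) and in the right panel (-0.34), while Nlrc5 is at 1.68 or above in all 6 pairs of the left and middle panels.

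In the S6K1/S6K2 series the same question gave other calls: Tapbp fell, and the heavy chains and B2m did not pass the test. Tapbp was at 333, 148 and 145 CPM in EV and 119, 76.3 and 83.9 in RAS, with every RAS culture below every EV culture. Its log2 fold change was -1.17 ± 0.31 (adjusted p = 0.0212), and it was the 1 member called of 8 tested, where 26.3% of all genes were called. It was also the 1 member without overlap, where 42.5% of all genes did not overlap, and with the replicate block it stayed the 1 called (-1.11, adjusted p = 0.0118; 28.7% of all genes). Without S6K1/S6K2 WT RAS replicate 2 or 3 its adjusted p rose to 0.0849 and 0.0770. The blocks of this series also held the DKO libraries, whose numbers do not pair with WT ones. That limits each blocked value given for this series. The median log2 fold change of the 8 was -0.46, against -0.02 over all genes. Of the 15 macrophage markers 4 had higher and 11 lower values (median -0.61; 0 called and 0 at an unadjusted p under 0.05, and 1 higher and 3 lower with the block), and their part was not tested. Of all genes 5524 of 13881 had an unadjusted p under 0.05.

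H2-K1 was at 163, 50.7 and 43.3 CPM in EV and 182, 107 and 71.6 in RAS (log2 fold change 0.49 ± 0.51, adjusted p = 0.505). Replicate 1 was the highest culture of both groups, and each pair was higher with RAS, by 0.16, 1.07 and 0.72. H2-D1 (0.19 ± 0.36, adjusted p = 0.729) and B2m (-0.19 ± 0.31, 0.690) lay within their standard errors of 0. B2m of EV replicate 1 was 2466 CPM, against 1159.7 and 1073 in the other EV cultures. H2-Q6 did not pass the filter on low counts in this series, with 5, 3 and 2 counts in EV and 7, 11 and 8 in RAS, so the RAS cultures were all higher but untested. H2-T23 was at 15.7, 9.81 and 11.5 CPM in EV and 10.8, 4.29 and 4.35 in RAS (-0.93 ± 0.47, adjusted p = 0.168), lower in all 3 pairs. Tap1 (-0.41, adjusted p = 0.190), Tap2 (-0.52, 0.178) and Psmb8 (-0.92, 0.326) did not pass.

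Replicate 1 stood apart in this series. In a refit without replicate 1 in every group, an alternative chosen after the values were seen, 6 members were called, where 27.4% of all genes were called, and they went in opposite directions. H2-K1 was higher (0.93, adjusted p = 0.0188), whereas Tap1 (-0.72, 0.00965), Tap2 (-0.80, 0.00542), Tapbp (-0.87, 0.00136) and Psmb8 (-1.97, 0.00649) were lower. The other was H2-Q6, which passed the filter in that refit and was higher. Leaving out WT RAS replicate 1 alone gave 5 called members, all lower (H2-T23, Tap1, Tap2, Tapbp and Psmb8; 22.7% of all genes), and leaving out WT EV replicate 1 alone gave 2, H2-K1 (1.35) and Tapbp (-0.66; 21.3% of all genes).

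The second question was whether loss of S6K1 altered these genes in cells with RAS. All 9 tested genes had lower values in KO RAS, but none passed the test across all genes. The median log2 fold change was -0.93, against 0.03 over all genes. Of all genes 0.00712% were called, which is 1 gene, so this fit made almost no call for any gene. At an unadjusted p under 0.05 it counted 9 of 9 members and 963 of 14036 genes, and DESeq2 called 2 members and 0.449% of all genes. The 15 macrophage markers were all lower in value as well (median -2.17; 0 called, 15 at an unadjusted p under 0.05), and they summed to 4025, 3623 and 818 CPM in wild-type RAS libraries and to 952, 752 and 293 CPM in those lacking S6K1. Their part in the class I values was not tested. H2-K1 was at 383, 448 and 140.5 CPM in the wild-type RAS cultures and 128, 157 and 111 in the KO ones (log2 fold change -1.30 ± 0.41, adjusted p = 0.587). The groups overlapped through WT RAS replicate 3, which lay below KO RAS replicate 2. Psmb8 was at 40.7, 38.6 and 7.31 CPM in the wild-type RAS cultures and 6.0, 8.58 and 3.08 in the KO ones (-2.29 ± 0.66, adjusted p = 0.587), with the same overlap. H2-Q6, read 33, 50 and 28 times in WT RAS libraries and 5, 10 and 12 times in KO ones, was the 1 member without overlap (-1.99 ± 0.37, adjusted p = 0.587), where 8.02% of all genes did not overlap. It passed the filter on low counts through those WT RAS libraries, so its lower KO values, with or without a block, are not independent of the filter.

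Pairs of the same number deviated together here too, and with the replicate block 6 of 9 members were called lower, where 4.15% of all genes were called. They were Psmb8 (-2.17 ± 0.24, adjusted p = 0.000473), H2-Q6 (-1.98, 0.00963), H2-T23 (-1.29, 0.0145), H2-K1 (-1.16, 0.0164), H2-D1 (-0.83, 0.0276) and B2m (-0.76, 0.0466). Tap1 (-0.73, 0.0722), Tapbp (-0.55, 0.0853) and Tap2 (-0.51, 0.187) did not pass. The same fit called 15 of 15 macrophage markers lower. The pairs were unequal: H2-K1 differed by -1.58, -1.51 and -0.34, Psmb8 by -2.66, -2.11 and -1.12 and the median of the 9 genes by -1.32, -1.17 and -0.21 (log2 difference, replicates 1 to 3). Replicates 1 and 2 carried most of the difference, with 9 of 9 members lower in each, and in replicate 3, where 8 of 9 were lower, the difference was small. Without replicate 3 in every group, an alternative chosen after the values were seen, 6 members were called lower (H2-K1, H2-D1, H2-T23, H2-Q6, Tapbp and Psmb8), where 2.69% of all genes were called, with H2-K1 at -1.54 (adjusted p = 0.0144) and Psmb8 at -2.43 (0.00631). Without replicate 1 or replicate 2 in every group edgeR called no member and 0% of all genes (334 and 201 genes at an unadjusted p under 0.05), and 9 of 9 members were lower in value.

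**Figure D3:**
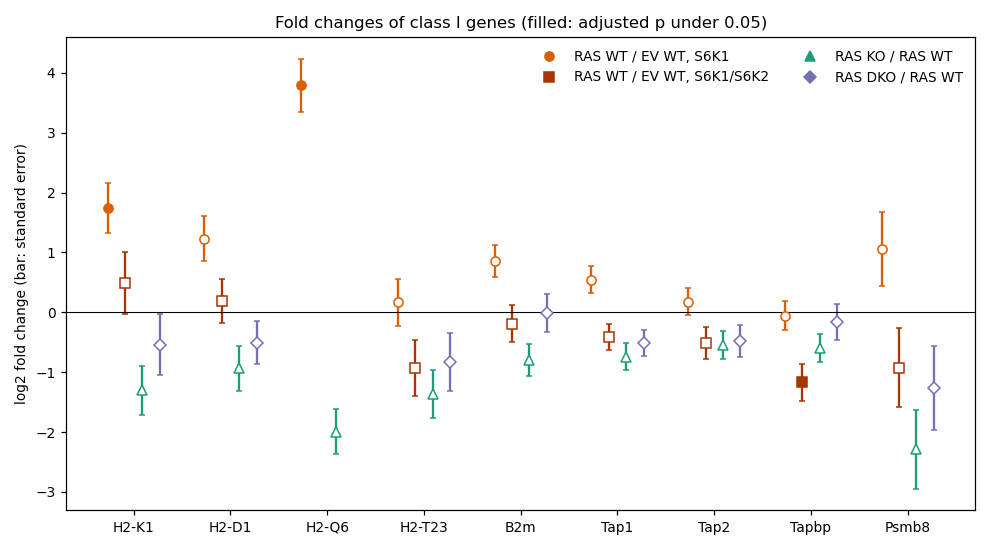
Log2 fold changes of the 9 class I genes (points) with standard errors (bars) in 4 comparisons, without a replicate block; filled symbols have an adjusted p under 0.05. H2-K1 and H2-Q6 (RAS, S6K1 series) and Tapbp (RAS, S6K1/S6K2 series) are filled, and all points for KO RAS against WT RAS lie below 0.

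Loss of both kinases was set against WT RAS in the S6K1/S6K2 series. None of the 8 tested members was called by edgeR or DESeq2, where 0.0216% of all genes were called (3 genes). All 8 values were below 0, with a median of -0.51 against -0.000287 over all genes, and 1 of 8, Tap1, had an unadjusted p under 0.05 (-0.51 ± 0.22, adjusted p = 1). Of all genes 179 of 13881 had an unadjusted p under 0.05. H2-K1 was at 182, 107 and 71.6 CPM in the wild-type RAS cultures and 55.7, 80.8 and 112 in the DKO ones (-0.54 ± 0.51). B2m was at 1748, 1067 and 1314 CPM in WT RAS and at 1320.2, 1258 and 1507 in DKO RAS (-0.02 ± 0.31). No member was free of overlap, where 6.07% of all genes were. The 15 macrophage markers all had lower values (median -1.98; 0 called, 1 at an unadjusted p under 0.05), and their part was not tested. The highest WT culture was replicate 1 and the lowest DKO culture also replicate 1 for H2-K1, Tap1, Tap2 and Psmb8. Without replicate 1 in every group H2-K1 was at 0.10, Tap1 at -0.11 and Psmb8 at 0.39 on the log2 scale, with 5 members higher and 4 lower.

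In DKO RAS against WT EV, where genotype and vector both differ, both transporter subunits, tapasin, Psmb8 and H2-T23 were called lower. This comparison and that of KO RAS with WT EV share their EV and RAS libraries with those above, so their values are not independent of them. In DKO RAS all 8 members had lower values. Of the 8, 5 were called, where 25.7% of all genes were called: Psmb8 (-2.18 ± 0.70, adjusted p = 0.0451), H2-T23 (-1.76 ± 0.49, 0.0259), Tapbp (-1.33 ± 0.31, 0.0127), Tap2 (-0.99 ± 0.27, 0.0247) and Tap1 (-0.92 ± 0.22, 0.0141). Tapbp was at 333, 148 and 145 CPM with EV and 80.9, 84.4 and 83.9 in DKO RAS, and Psmb8 was at 15.1, 10.8 and 9.35 CPM with EV and at 0.991, 2.74 and 3.97 in DKO RAS. H2-K1 (-0.05 ± 0.51, 0.954), H2-D1 (-0.32 ± 0.36, 0.545) and B2m (-0.20 ± 0.31, 0.663) were not called. The 5 called members were also those without overlap, where 43.5% of all genes did not overlap. Of the 15 macrophage markers 14 had lower values (median -2.69; 0 called, 9 at an unadjusted p under 0.05), and their part was not tested. Of all genes 5467 of 13881 had an unadjusted p under 0.05. The calls were fragile to single libraries: without S6K1/S6K2 DKO RAS replicate 1 or replicate 2 only Tapbp was called (16.2% and 14.0% of all genes), and without S6K1/S6K2 WT EV replicate 1 only Tap1 and Tapbp were (21.7%). Without replicate 2 in every group none was (2.97%), and without replicate 1 in every group 6 were (22.9%), among them H2-K1, which turned to 1.04 (adjusted p = 0.0152).

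In KO RAS against S6K1 WT EV, H2-Q6 alone was called, higher (1.81 ± 0.49, adjusted p = 0.0324), where 18.1% of all genes were called. It was read 4, 2 and 2 times in EV and 5, 10 and 12 times in KO RAS. H2-Q6 passed the filter on low counts through the WT RAS libraries, so it is no independent support here. It lost its call when any of S6K1 WT EV replicates 1 to 3 or S6K1 KO RAS replicates 2 and 3 was left out. With the replicate block H2-Q6 stayed higher, and H2-T23 (-1.22, adjusted p = 0.00291), Psmb8 (-1.22, 0.00325) and Tapbp (-0.65, 0.00729) were lower, where 41.1% of all genes were called. H2-K1 (0.51, 0.0890) and B2m (0.07, 0.793) were not called. H2-T23 was at 20.3, 21.1 and 15.8 CPM with EV and 8.46, 10.3 and 6.17 in KO RAS, without overlap. In all 4 of 9 members did not overlap, H2-T23, Tap2 and Tapbp lower and H2-Q6 higher, where 34.9% of all genes did not. The 15 macrophage markers all had lower values here (median -2.21; 4 called, 14 with the block), and their part was not tested.

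Whether the series differed was tested over all 18 libraries. The RAS effect had lower values in the S6K1/S6K2 series for all 9 members, with a median difference of -1.12 (log2) against -0.03 over all genes. By edgeR 0 of 9 were called, 4 had an unadjusted p under 0.05, and DESeq2 called 0, where 0% of all genes were called by edgeR. Of all genes 1819 of 14483 had an unadjusted p under 0.05. The sizes were -0.97 ± 0.33 for Tap1 (adjusted p = 0.294), -2.0 ± 0.98 for Psmb8 (0.407) and -1.27 ± 0.72 for H2-K1 (0.467). Of the 15 macrophage markers 14 had lower values of the RAS effect in the S6K1/S6K2 series (median -0.78; 0 called), and their part was not tested. The effect of kinase loss had higher values in the S6K1/S6K2 series for all 9 members (median difference 0.58, against 0.0068 over all genes). By edgeR 0 of 9 were called, 1 (H2-Q6) had an unadjusted p under 0.05, and DESeq2 called 0. H2-Q6 was also 1 of the 4 at that level for the RAS effect. It was read at few counts outside the S6K1 WT RAS libraries, where it was high. Its values are therefore no independent support for either difference. Of all genes 0.0069% were called and 178 of 14483 had an unadjusted p under 0.05. For this effect 14 of the 15 macrophage markers had higher values (median 0.35; 0 called), and their part was not tested. A batch, if any, cannot be told apart from the series.

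Nlrc5, the class I transactivator, rose with RAS in both series. It was at 9.19, 17.4 and 8.25 CPM in S6K1 WT EV and 74.7, 97.3 and 55.0 in WT RAS (log2 fold change 2.7 ± 0.37, adjusted p = 0.00184). The S6K1/S6K2 series had it at 6.55, 6.10 and 7.08 CPM with EV and at 50.4, 37.6 and 23.8 with RAS (2.50 ± 0.30, adjusted p = 0.000548). The groups did not overlap in either series. It remained above EV in KO RAS (2.16 ± 0.37, adjusted p = 0.00414) and in DKO RAS (1.90 ± 0.29, 0.00182), and it was -0.54 ± 0.34 in KO RAS and -0.59 ± 0.27 in DKO RAS relative to WT RAS, neither of which was called. Irf1, an interferon-induced activator of class I genes, fell with RAS in the S6K1/S6K2 series, from 51.1, 38.2 and 34.7 to 18.5, 15.7 and 15.8 CPM (-1.31 ± 0.22, adjusted p = 0.00295). In the S6K1 series it was at -0.11 ± 0.18 with RAS in wild-type cells (0.745) and lower in KO RAS, at -0.80 ± 0.18 against EV (adjusted p = 0.0147) and, with the replicate block, at -0.69 against WT RAS (0.0445; 0.587 without the block). DKO RAS had it at -1.27 ± 0.22 against EV (0.00328) and 0.04 against WT RAS (adjusted p = 1). Of the 12 regulators tested 1 rose and 0 fell in the S6K1 series (median -0.02), and 1 rose and 3 fell in the S6K1/S6K2 series (median -0.26), Irf1, Nfyc (-0.79) and Rfxap (-0.72), the last 2 being subunits of the factors on the Y and X boxes. With the replicate block Rfxap was at an adjusted p of 0.0603, and Creb1, a factor of the X2 box, was lower in the S6K1 series (-0.34, adjusted p = 0.0162). Over all genes 13.2% and 26.3% were called with RAS in the 2 series, and 36.2% and 28.7% with the block.

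**Figure D4:**
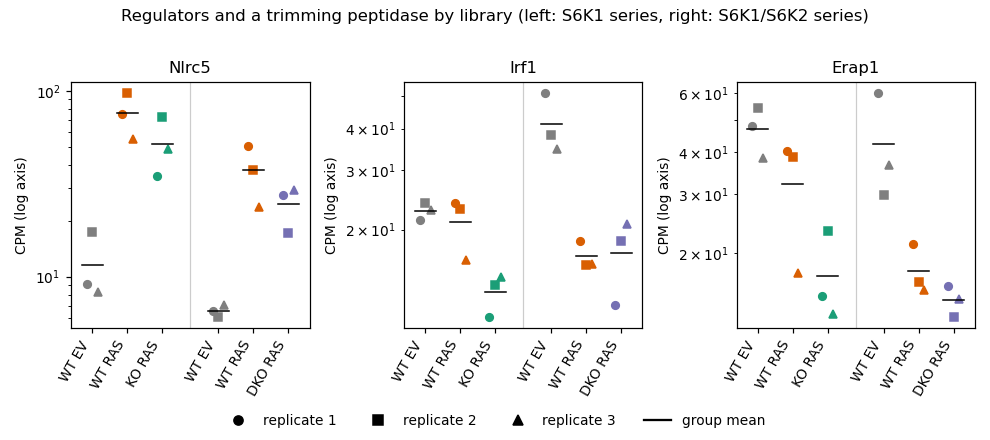
Level of Nlrc5, Irf1 and Erap1 in each of 18 libraries, in CPM on a log axis, with group means as bars. Nlrc5 lies above the EV libraries of the same series in all 12 RAS libraries, and Irf1 and Erap1 of the S6K1/S6K2 series lie lower with RAS.

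Of 16 tested genes of interferon signalling, 0 were called by edgeR with RAS in the S6K1 series (4 at an unadjusted p under 0.05, median 0.11; 5 higher and 1 lower with the replicate block, Irf7, Usp18, Tmem173, Ifngr1 and Ifngr2 higher and Jak1 lower), and 1 rose and 2 fell in the S6K1/S6K2 series (median -0.21). Jak2 rose (0.70), and Socs1 (-1.83), a feedback inhibitor, and Irf9 (-1.07), part of the complex that carries the type I interferon signal, fell, and with the block Ifngr1 (0.52) and Tyk2 (0.49) rose too. With RAS 13.2% and 26.3% of all genes were called in the 2 series, and 36.2% and 28.7% with the block. In DKO RAS against EV, Stat2 (-1.79, adjusted p = 0.00846), Irf7 (-2.51, 0.0227) and Usp18 (-3.45, 0.0211) were lower as well, and in KO RAS against EV Cgas (-0.91) was lower and Ifngr1 (0.55) higher. In these 2 comparisons 25.7% and 18.1% of all genes were called. In KO RAS against WT RAS 0 of 16 were called by edgeR (5 at an unadjusted p under 0.05), and with the block Irf7 (-2.08), Usp18 (-2.20), Stat2 (-1.25) and Irf9 (-0.78) were lower. That blocked fit called 4.15% of all genes. Usp18, an interferon-induced gene, was at 25.1, 46.6 and 20.8 CPM with EV, 154, 169 and 20.3 with RAS in wild-type cells and 14.9, 57.8 and 6.08 in the KO cells, again with WT RAS replicate 3 apart from replicates 1 and 2. Ifng was at 0 counts in all libraries, and Ifnb1 was at or below 0.311 CPM.

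Among genes of peptide loading and trimming, Erap1 fell with RAS in the S6K1/S6K2 series from 60.2, 29.8 and 36.7 to 21.2, 16.3 and 15.5 CPM (-1.26 ± 0.25, adjusted p = 0.00644). It was at -0.55 ± 0.32 in the S6K1 series (0.325; with the replicate block -0.60, 0.0214), and was lower against EV in KO RAS (-1.46 ± 0.33, 0.0162) and DKO RAS (-1.55 ± 0.25, 0.0024). Tapbpl (-1.03, 0.0314), a tapasin relative, also fell, and the peptidases Npepps (0.70, 0.00385) and Lnpep (0.46, 0.0459) rose, which made 2 higher and 2 lower of 10 (median 0.16). For the S6K1 series edgeR called 0 of 10 (2 at an unadjusted p under 0.05, median -0.00131), and the blocked fit called Npepps and the peptidase Lap3 higher and Erap1 and Tapbpl lower. In the S6K1/S6K2 series the block left Lnpep at an adjusted p of 0.0643. The shares of all genes called with RAS were 13.2% and 26.3% in the 2 series, and 36.2% and 28.7% with the block. The general chaperones of the loading complex, Calr (-0.03 and 0.01), Canx (-0.02 and 0.38) and Pdia3 (0.12 and 0.10 in the 2 series), were not called, the smallest adjusted p being 0.140.

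Psmb8 has partners and competitors in the proteasome. Of 6 listed genes of the immunoproteasome and of proteasome activators and assembly, 0 were called by edgeR with RAS in the S6K1 series (0 at an unadjusted p under 0.05, median 0.33; 3 higher with the replicate block, Psme1, Psme2 and Pomp) and Psme4 (0.51, adjusted p = 0.0311), a nuclear proteasome activator, alone rose in the S6K1/S6K2 series (median -0.29). In that series the median joins lower values of Psmb10, Psme1 and Psme2 with higher values of Pomp, Psme3 and Psme4. Psmb10, the third inducible subunit, was at -1.07 ± 0.39 there (0.0655), and Psme1 (-0.59) and Psme2 (-0.67), subunits of the PA28 activator, did not pass. With the block Psmb10 (-1.10, 0.0179) and Psme1 (-0.58, 0.0428) were lower. In DKO RAS against EV Psmb10 (-1.30 ± 0.39, 0.0347) and Psme2 (-0.82 ± 0.26, 0.0469) were lower, beside Psmb8. Of the 7 constitutive β subunits 0 were called by edgeR in either series (0 and 1 at an unadjusted p under 0.05, medians 0.34 and 0.14), and with the replicate block 7 were higher in the S6K1 series and 1, Psmb3 (0.49, adjusted p = 0.0199), in the other. Over all genes 13.2% and 26.3% were called with RAS in the 2 series, and 36.2% and 28.7% with the block. Without the block Psmb5 was at 0.34 and 0.00, Psmb6 at 0.32 and 0.09, and Psmb7 at 0.38 and 0.14 (log2 fold changes in the 2 series). Per length, Psmb8 relative to Psmb5 was 0.129 to 0.301 with EV, 0.127 to 0.546 with RAS in wild-type cells and 0.0471 to 0.113 in the KO cells. The WT RAS and KO RAS ranges of that ratio did not overlap (exact two-sided permutation test, p = 0.1, the smallest that 3 against 3 allow, 0.267 adjusted over 8 ratio tests). In the S6K1/S6K2 series it was 0.148 to 0.218 with EV, 0.0275 to 0.171 with RAS in wild-type cells and 0.0155 to 0.0628 in the DKO cells.

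Of the other class I heavy chain genes 6 were tested in the S6K1 series and all had higher values with RAS, with H2-Q7 called (3.64 ± 0.60, adjusted p = 0.00416; median of the 6, 0.76). H2-Q4 (1.77 ± 0.52, 0.0558), H2-T22 (0.57, 0.367) and H2-M3 (0.60, 0.250) were not called, and with the replicate block H2-Q4 (1.70, 0.00078) and H2-T24 (0.92, 0.0377) were higher too. Of the 4 tested in the S6K1/S6K2 series 0 were called by edgeR (0 at an unadjusted p under 0.05, median -0.45), and in DKO RAS against EV H2-T22 was lower (-0.95 ± 0.29, 0.0353). In KO RAS against WT RAS 6 of 6 had lower values (median -1.31), 3 of them called with the replicate block and 0 without it (5 at an unadjusted p under 0.05). Of the class I-like genes, which do not present cytosolic peptides, Procr, an endothelial protein C receptor, rose in both series (1.49 and 1.92), and Fcgrt (-1.74), the neonatal Fc receptor, and Hfe (-1.20), a regulator of iron uptake, fell in the S6K1/S6K2 series, so 1 of 5 was called higher in the first and 1 higher and 2 lower of 5 in the second (medians -0.16 and -0.71). With the block Fcgrt was also lower in the S6K1 series (-0.75, adjusted p = 0.0127). The shares of all genes called with RAS were 13.2% and 26.3% in the 2 series, and 36.2% and 28.7% with the block. Against EV, H2-Q7 was higher in KO RAS (2.11 ± 0.63, 0.046), and Procr was higher and Fcgrt and Hfe lower in both KO RAS and DKO RAS. Of 4 tested class II genes edgeR called 0 with RAS in either series (0 and 1 at an unadjusted p under 0.05), while H2-DMb1 was lower in KO RAS (-1.35) and DKO RAS (-2.44) against EV. Neither a member nor a gene of these lists was called by edgeR without a block in KO RAS or DKO RAS against WT RAS. With the block 4.15% of all genes were called in KO RAS against WT RAS. Among them Erap1 (-0.88, adjusted p = 0.0252), Psme2 (-0.66, 0.0404) and Hfe (-0.90, 0.0425) were lower, and endothelial Tek (1.59, 0.0463) was higher.

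Close paralogs limit what single heavy chains say. Of the 50-base windows in the exons of H2-Q6, 22.7% also occur in another gene, 12.6% in H2-Q7. The share was 14.8% for H2-T23, 12.8% for H2-D1 and 7.29% for H2-K1, but 1.13% for Tapbp, under 1% for Tap1 (0.834%) and Tap2 (0.708%), and 0 for B2m and Psmb8. H2-Q6 and H2-Q7 are therefore uncertain as single genes. A sum over all class I heavy chain genes, which reads exchanged among them leave unchanged, was at 442, 367 and 232 CPM with EV, 1039, 1149 and 392 with RAS in wild-type cells and 396, 475 and 322 in the KO cells. With RAS it differed by 1.31 ± 0.38 (adjusted p = 0.0537; with the replicate block 1.23, 0.000914), and with S6K1 loss by -1.11 ± 0.38 (0.594; with the block -0.99, 0.0184). The sum in the S6K1/S6K2 series was at 475, 219.7 and 184 CPM with EV, 491, 282 and 219 with RAS in wild-type cells and 184, 212 and 295 in the DKO cells, with 0.17 ± 0.39 for RAS (0.772) and -0.52 ± 0.39 for loss of both kinases (adjusted p = 1).

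The balance of the classical chains was read as H2-K1 relative to H2-D1 per exon length. It was 0.528 to 0.562 with EV, 0.718 to 0.844 with RAS in wild-type cells and 0.578 to 0.653 in the KO cells, so the WT RAS range lay above both others (p = 0.1 for each by exact two-sided permutation test, 0.267 adjusted over the 8 tests). In the S6K1/S6K2 series it was 0.454 to 0.698, 0.604 to 0.776 and 0.537 to 0.784, and the ranges overlapped. Overlapping genes add another limit, since the strand setting of the counting was not stated. On NCBIM37 models B2m overlaps Patl2 over 5398 bases on the opposite strand, H2-T23 overlaps A930015D03Rik over 3083 opposite bases, Tapbp overlaps Zbtb22 on the same strand over 3421 bases, and Tap1 and Psmb9 share 212 bases or fewer on opposite strands. Psmb8 overlaps Gm20496 over 2140 opposite bases, and Tap2 overlaps Gm15821 over 3148 and Gm20496 over 1923, also on the opposite strand.

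Macrophage genes moved with the class I genes in several comparisons, and macrophages carry class I themselves. The summed level of the 15 markers was 3459.8, 2616 and 704 CPM with EV, 4025, 3623 and 818 with RAS in wild-type cells and 952, 752 and 293 in the KO cells. The S6K1/S6K2 series had 1532, 168 and 226 CPM with EV, 1112, 204 and 298 with RAS in wild-type cells and 282, 91.7 and 117 in the DKO cells. Replicate 3 of the S6K1 series and replicates 2 and 3 of the WT groups in the other series were low, and all 3 KO RAS libraries lay below WT RAS replicates 1 and 2. Against EV, the macrophage genes Adgre1, Csf1r, Mrc1 and Ptprc were called lower in KO RAS.

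By pairs, the marker median differed between KO RAS and WT RAS by -2.02, -2.39 and -1.61, where the class I median differed by -1.32, -1.17 and -0.21. Between WT RAS and EV the marker median differed by 0.13, 0.29 and -0.16 and the class I median by 0.95, 1.22 and 0.18. WT RAS replicate 3, with a marker sum of 818 CPM, lay between KO RAS replicates 1 and 2 (952 and 752), and its H2-K1 level of 140.5 CPM also lay between theirs. Its Psmb8, at 7.31 CPM, lay between theirs as well, as did its H2-T23, B2m, Tap1 and Tap2. Its H2-Q6, at 2.25 CPM, lay above both, and its H2-D1 and Tapbp lay below both. These positions describe single libraries, and a cause was not tested. No lymphoid marker was above 3 counts in any library, and Ciita, the class II transactivator, was at 0 except in 1 library.

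**Figure D5:**
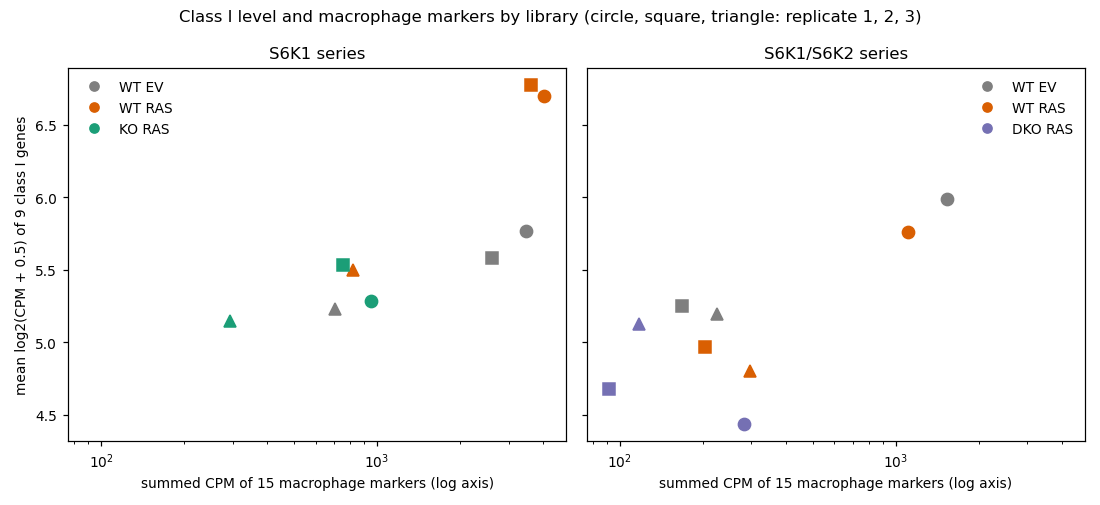
Mean log2(CPM + 0.5) of the 9 measured class I genes against the summed CPM of 15 macrophage markers (log axis) for each library, by series, with a symbol for each replicate number. WT RAS replicates 1 and 2 of the S6K1 series are highest on the class I axis, at 6.70 and 6.78. WT RAS replicate 3, at 5.50, lies within the range of the KO RAS libraries and within that of the WT EV libraries on both axes.

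Genes outside the lists that followed the class I level most closely were looked for over the 18 libraries, each centred within its series, among 9830 genes. Likeness was Pearson's r with the mean log2 level of the tested members, given as a description, since the libraries share groups and lines. The 5 highest were Ube2l6 (0.924), Ifi203 (0.905), Bst2 (0.901), Nampt (0.892) and Tor3a (0.880). Among the members themselves, whose own level enters the mean, r was 0.923 for Psmb8, 0.882 for H2-D1, 0.847 for Tap2, 0.831 for Tap1, 0.830 for B2m, 0.803 for H2-K1, 0.795 for H2-T23, 0.731 for Tapbp and 0.489 for H2-Q6. Among regulators it was 0.836 for Irf7 and 0.170 for Nlrc5, and it was 0.760 and 0.723 for the macrophage genes Lyz2 and Csf1r.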

How the data were processed

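The deposited file holds raw read counts per Ensembl gene identifier, made by the authors, for 18 RNA sequencing libraries in 2 series of 9. By the study's methods, libraries came from a stranded poly(A) kit and were aligned with TopHat to mm9 and counted with HTSeq, whereas the submitters' processing notes name CASAVA, STAR 2.7.1a, DESeq2 1.28.1 and mm10. The sources conflict and the conflict was not settled; 22812 of 55401 identifiers are not in the NCBIM37 annotation used here for exon lengths, shared 50-base windows and overlaps. The strand setting of the counting is not given in the sources used here. Symbols were found for 32589 identifiers, which held 99.1% of counts. Psmb9 was not analysed here. One gene of the regulator list is not reported here.

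Each comparison was fitted on the 9 libraries of its series with edgeR 4.0.16 in R 4.3.3 (limma 3.58.1), by the quasi-likelihood test on group alone, after filterByExpr (minimum count 10) and TMM scaling, with Benjamini-Hochberg adjustment over all genes at 0.05. Differences between series were contrasts over all 18 libraries. CPM are counts per 1000000 on the TMM-scaled library size, and standard errors come from the fit. Levels per length used union exon length. Ratios were compared by exact permutation tests. Promoter sequences and gene positions are RefSeq, GRCm38.p6. Total counts were 8319445 to 14402442 per library, so a level of 3 counts is the floor, and this covers counting error only. Chi-square over degrees of freedom was 8.62 or more in each of 18 replicate pairs, so no 2 libraries agreed within sampling noise. The scripts were tested on simulated data.

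Same-numbered libraries deviated together: the correlation of deviations over genes was 0.684, 0.444 and 0.668 for RAS and EV and 0.692, 0.393 and 0.616 for KO and WT in the S6K1 series, and 0.366, 0.293 and 0.308 for RAS and EV in the S6K1/S6K2 series, where the wild-type number marks a line and KO embryos were littermates of WT ones by the methods. DKO and WT embryos were not littermates. Whether KO and WT libraries of the same number came from littermates was not stated.

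The genes named are the members, the targeted kinases, a fixed set of pathway genes, any list gene called in a comparison without a block, and the 5 genes outside the lists most like the members (mean of at least 100 counts). List genes named as called only with the block were added after their values were seen. The members and lists were chosen with earlier results of these data known. Alternatives were the replicate block, DESeq2 1.42.0, other scalings and filters, other sets of libraries and leaving out libraries.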

Additional observations from a re-analysis of the deposited data

How the results depend on the processing

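In the S6K1 series, 2 members were called with RAS (13.2% of all genes) and 5 with the replicate block (36.2%). When 1 replicate was left out 0 to 5 were called (1.80% to 12.8% of all genes). DESeq2 called 4, no filter gave 4, and the 6 libraries compared gave 1. In the S6K1/S6K2 series 1 was called (26.3% of all genes), 2 with all 18 libraries, 0 with the 6 libraries compared, and 0 to 6 with a replicate left out. For KO RAS against WT RAS 0 were called (0.00712% of all genes), 6 with the replicate block (4.15%) and 2 with DESeq2 (0.449%). No filter gave 2, and a replicate left out gave 0 to 6 (0% to 2.69% of all genes). For KO RAS against EV 1 was called (18.1% of all genes), 4 with the block (41.1%), 2 with DESeq2, 3 with no filter, 2 with the 6 libraries compared, and 0 to 3 with a replicate left out. For DKO RAS against EV 5 were called (25.7% of all genes), 4 with the replicate block (Psmb8 at an adjusted p of 0.0651; 28.3% of all genes were called), and 0 to 6 with a replicate left out. H2-K1 turned to 1.04 without replicate 1 in every group. For DKO RAS against WT RAS and for both differences between series 0 were called under each alternative. Over the members and alternatives, single-gene values kept their side of the threshold in 132 of 153 for RAS in the S6K1 series, 122 of 136 for RAS in the other, 136 of 153 for KO RAS against WT RAS, 133 of 152 for KO RAS against EV and 115 of 136 for DKO RAS against EV. The replicate numbers did not pair DKO with WT RAS, whose deviations correlated at 0.279, 0.454 and -0.0351; the block there called 0 members. Leaving out a replicate number in every group was chosen after the data were seen. Counts of members without a share or count of all genes, here or in the next paragraph, cannot be set against the background. The causes were not tested.

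Counts over all genes moved as well. With RAS they were 1859 in the S6K1 series (5085 with the block, 252 to 1818 with a replicate left out) and 3646 in the other (286 to 4199 with a replicate left out). For KO RAS against WT RAS the count of 1 became 583 with the block, 63 with DESeq2, 108 with no filter, 4 with all 18 libraries, 0 with the 6 compared, and 0 to 381 with a replicate left out. For DKO RAS against WT RAS 3 became 8, 10, 11 and 7 with the block, DESeq2, no filter and all 18 libraries, and 0 to 3 with a replicate left out. Against EV, KO RAS had 2542 (5766 with the block, 332 to 2431) and DKO RAS 3565 (417 to 4044). The difference in the RAS effect had 0, and 58, 143 and 204 with the block, DESeq2 and no filter, and up to 290 with a replicate left out. Depth limits H2-Q6 above all, which had 2 to 5 counts in the EV libraries.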
